A study of Bos taurus with 23 samples.

Results

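In bovine umbilical cord cells kept in culture for 50 days, 49 genes were expressed in the cells tagged WJ and were close to silent in those tagged BUC. They were chosen by their levels from the 16094 genes of the count table. A gene was a member if its mean was 5 CPM or more over the 3 WJ libraries of 50 days and under 1 CPM over the 3 BUC libraries of 50 days. CPM is the count of a gene for every 1000000 counts of its library. Of all genes, 7869 passed the first condition and 5943 the second, and 86 showed the reverse pattern, with BUC at 5 CPM or more and WJ under 1 CPM. Because the 50-day values selected the members, they are given as a description with no test, and tests were run only between groups that the selection did not use. The fit behind these tests took in all 23 libraries. The 50-day values thus still entered its low-count filter, its scaling and its estimate of spread, and so each p-value and standard error.

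All cells were mesenchymal stem cells of the Holstein umbilical cord and grew in low-glucose DMEM that contained fetal bovine serum. Untreated primary cultures of 12 days gave 2 WJ libraries (P3 and P4) and 1 BUC library (P3). Untreated primary cultures of 50 days gave 3 WJ and 3 BUC libraries, named P10, P15 and P18 in both. An immortalized line had been made from WJ cells, which were transiently transfected with a plasmid that encodes SV40 large T, and was sampled after 21 days (9 libraries, of which replicates 1 to 5 were tagged AM and replicates 6 to 9 FBS) and after 165 days (5 libraries, all tagged 2D). The line was grown from colonies after the transfection and counts as 1 line. WJ and BUC stand only in the library names, since the sample titles begin alike for both, and what these tags and the P numbers stand for was not assumed. The 12-day BUC library was named Mix, the P4 WJ library Male and the P18 WJ library F. The animals and cultures behind the libraries are not otherwise given. A p-value here therefore sets a difference against the spread among these libraries, and some of that spread may be technical. For each gene the 6 groups shared 1 estimate of spread, also the 12-day groups with 2 and 1 libraries.

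Mesenchymal stem cells of the umbilical cord are stromal cells that attach to plastic, divide many times and can form bone, cartilage and fat cells. Primary cultures divide a limited number of times before growth stops. SV40 large T extends this span by blocking the tumour suppressors p53 and RB. Genes were identified only by Ensembl numbers. None of the 49 members, and 0 of all 16094 IDs, could be paired with a symbol here, so their functions are not described and the mesenchymal label could not be checked against marker genes. In bulk RNA, fewer cells that express a gene and less of its RNA per cell cannot be told apart.

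Depth differed between the groups. The WJ libraries P10, P15 and P18 of 50 days held 3980920, 2421508 and 1840606 counts, so 1 count stood for 0.251, 0.413 and 0.543 CPM in them, and P15 and P18 were the shallowest of all 23 libraries. The BUC libraries of 50 days held 3743953 to 5920394 counts, the 12-day libraries 8954270 to 15486372, the 21-day line 4141228 to 11382368 and the 165-day line 3753231 to 13540302. In the 165-day line, replicates 1 and 2 stood apart from replicates 3, 4 and 5 in the members. Their summed member levels were 390.5 and 432.2 CPM, against 750.6, 821.4 and 725.6 CPM in replicates 3, 4 and 5. Much of this gap lay in the seventh most abundant member, at 99.6 and 92.2 CPM against 344.5, 346.5 and 329.6 CPM. The median member was at 1.88 and 2.13 CPM, against 4.28, 4.71 and 3.995 CPM. The calls, the folds of the genes described and the level counts of the 165-day line are therefore also given without these 2 libraries, an alternative added once the values were known.

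At 50 days the 49 genes together made up 861.9, 1130 and 1224 CPM in the WJ libraries P10, P15 and P18, and 24.6, 17.4 and 18.6 CPM in the BUC libraries of the same P numbers. The 2 most abundant members, ENSBTAG00000012909 and ENSBTAG00000016646, carried much of the WJ sum, which was 441.6, 613.3 and 792.1 CPM without them. Most members were far lower. The median of the group means was 8.51 CPM in WJ and 0.347 CPM in BUC, and 20 members had a WJ mean of 10 CPM or more. Pooled over the 3 WJ libraries, a member had at least 35 counts, and the median was 65 counts. Every WJ library lay above every BUC library in 48 members, a separation that the selection itself favours.

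ENSBTAG00000012909 had 349.4, 273.8 and 226 CPM in the WJ libraries P10, P15 and P18, and 0.801, 0.644 and 0.507 CPM in the BUC libraries. It was high in each WJ library and under 1 CPM in each BUC library. ENSBTAG00000016646 had 70.8, 242.8 and 205.4 CPM in WJ, lowest in P10, and no count in any BUC library. A count of 0 over the pooled BUC libraries allows a level of up to 0.209 CPM (3 counts, counting error only). Altogether 4 members had no count in BUC at 50 days, and 35 were under 1 CPM in each of the 3 BUC libraries.

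The members were uneven among the WJ libraries of 50 days. In 23 members the highest of the 3 WJ libraries was within 2-fold of the lowest, in 13 it was over 2-fold and up to 4-fold above it, and in the other 13 over 4-fold. A single library held over 60% of the summed CPM in 5 members. The median member stood at 7.03 CPM in P10, 9.09 CPM in P15 and 10.3 CPM in P18, and 33, 39 and 43 members reached 5 CPM in these libraries. The level rose in the order P10, P15, P18 in 15 members and fell in that order in 3, and with 1 library per P number this order carries no test. Depth fell in the same order, and its part in the pattern was not tested. At the edge of the selection, the 3 members with the lowest WJ means had 5.29, 5.32 and 5.34 CPM, and the 3 genes just outside it 4.98, 4.92 and 4.91 CPM. On the BUC side, the members closest to 1 CPM had 0.995, 0.935 and 0.915 CPM. The nearest genes left out had BUC means of 1.01, 1.02 and 1.04 CPM with WJ means of 112.8, 5.27 and 68.6 CPM, so genes with a similar contrast lie just beyond the limit.

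**Figure D1:**
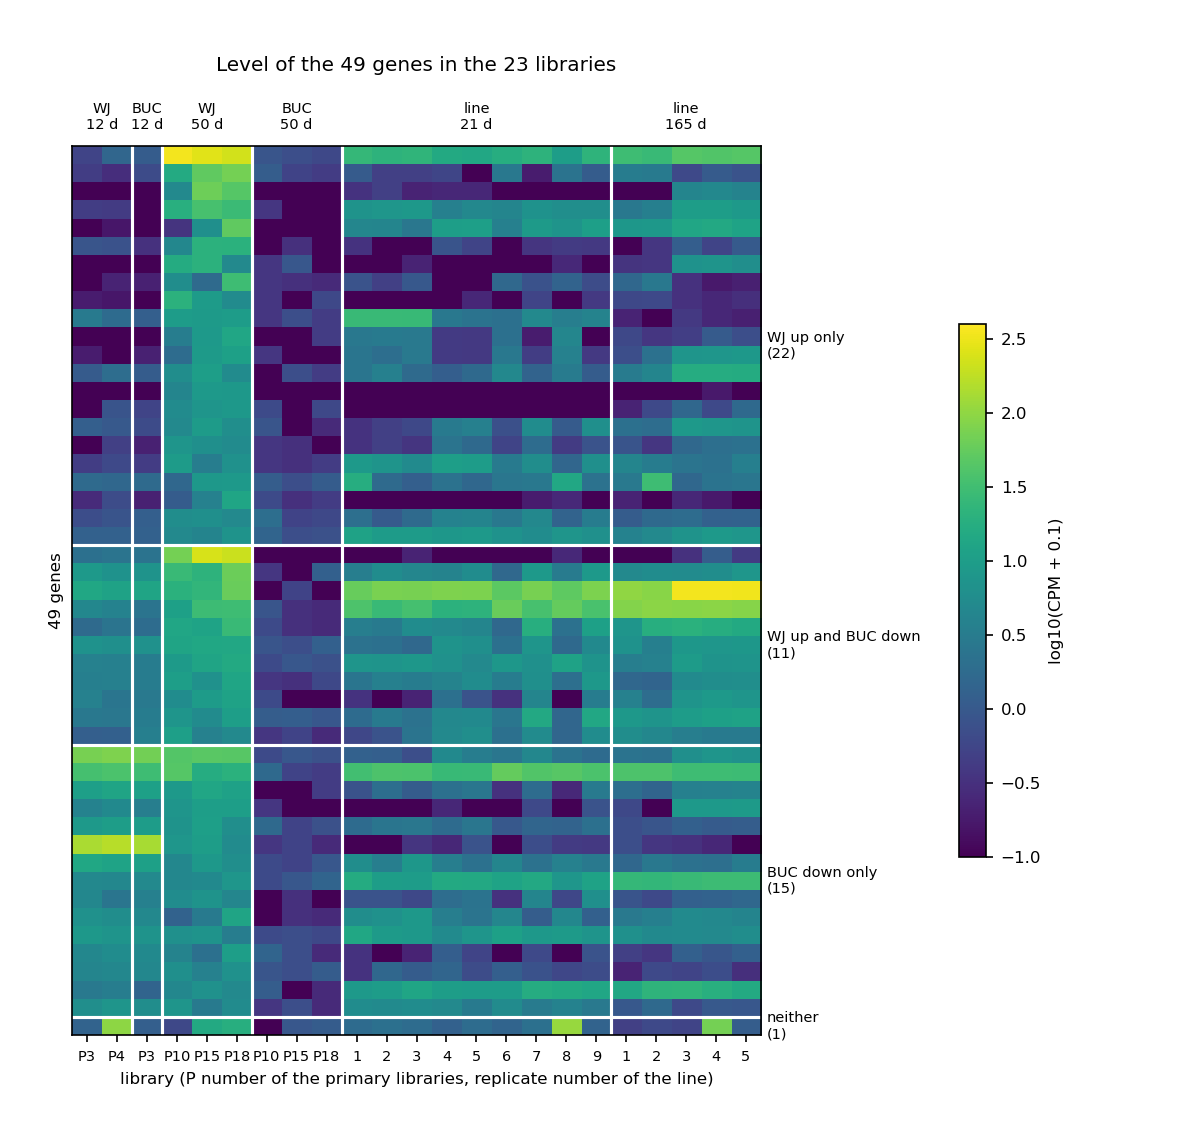
Level of the 49 genes (rows) in the 23 libraries (columns), as log10 of CPM plus 0.1, with rows arranged by how the level at 50 days stood to that at 12 days (WJ up only, 22 genes; WJ up and BUC down, 11; BUC down only, 15; neither, 1). The 3 WJ columns of 50 days are bright and the 3 BUC columns dark by selection, while the WJ and BUC columns of 12 days look alike and the columns of the line differ from gene to gene.

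At 12 days the levels of WJ and BUC were close. They were within 2-fold of each other in 47 of the 49 members, on CPM with 0.5 added. The added 0.5 CPM narrows the ratios of members at low levels. In 20 members the BUC library lay below both WJ libraries and in 8 above both. These counts were not set against all genes, so they are no trait of the members. Summed over the members, WJ had 390.2 and 519.9 CPM and BUC 364.5 CPM. Much of the WJ excess in P4 lay in 1 gene, ENSBTAG00000050647, picked on its values after they were seen, which had 97.2 CPM in P4, 1.32 CPM in P3 and 1.12 CPM in BUC. The members' median log2 fold change of WJ over BUC was 0.13, against 0.02 over all genes tested, with single members from -1.60 to 5.43 and a median standard error of 0.77.

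A test could say little here, because BUC had 1 library at 12 days, assumed in the fit to vary like the others. The edgeR quasi-likelihood test (Benjamini-Hochberg adjusted p under 0.05 over 12214 genes) called 0 members higher and 0 lower in WJ, where 0% of all genes were called higher and 0.00819%, a single gene, lower. ENSBTAG00000050647 was not called at a log2 fold change of 5.43 ± 3.86 (SE, edgeR adjusted p = 1). With an unadjusted p under 0.05 there were 0 members and 52 genes higher, and 0 members and 33 genes lower. DESeq2 and limma voom also called 0 members, against 0 genes higher and 1 lower by DESeq2 and 6 and 13 by limma voom over all genes. The absence of calls therefore does not show that the members were alike in both cultures at 12 days.

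**Figure D2:**
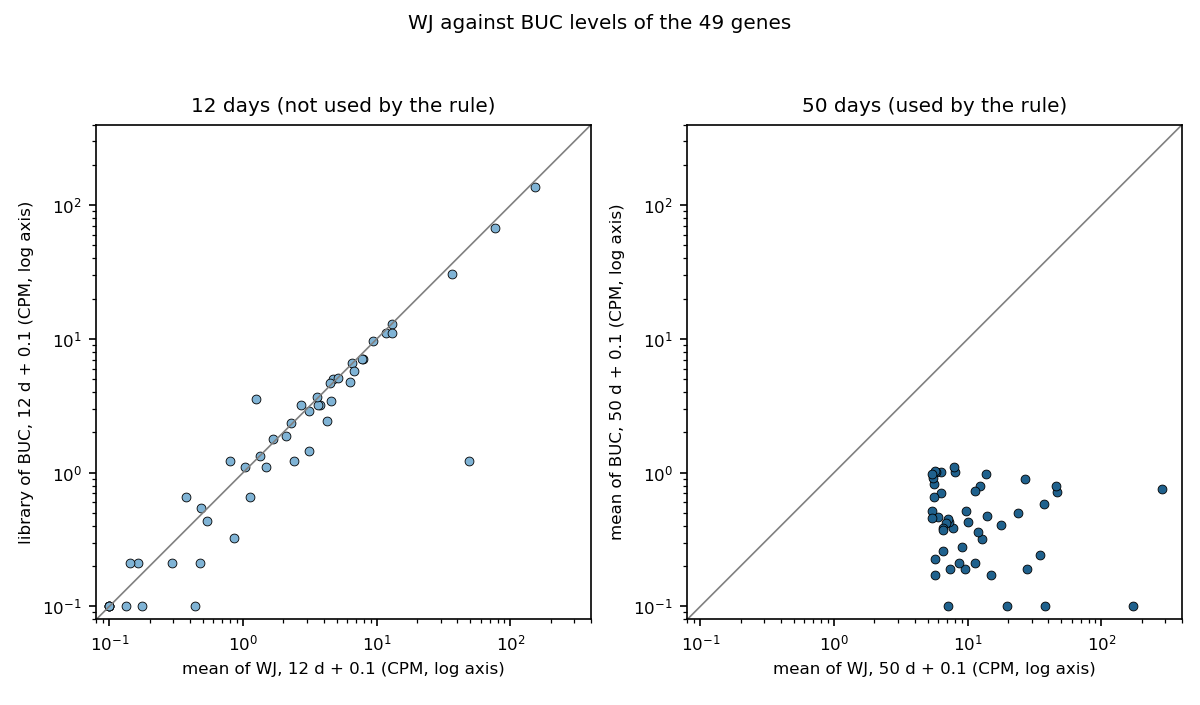
Mean level of each of the 49 genes in WJ (horizontal) against BUC (vertical), in CPM plus 0.1 on log axes, at 12 days (left; WJ is the mean of 2 libraries, BUC 1 library) and at 50 days (right; means of 3 libraries each). The line marks equal levels. Nearly all points of 12 days lie along it, 47 of 49 within 2-fold with 0.5 CPM added, whereas the points of 50 days fill the corner that the selection allows.

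The 12-day cultures held members at all levels. Over the 3 libraries of 12 days together, 14 members had a mean of 5 CPM or more, with a median of 10.4 and a maximum of 147.1 CPM. Another 17 lay between 1 and 5 CPM and 18 were under 1 CPM. No count was found in any 12-day library for 4 members, which allows a level of up to 0.0837 CPM over the 3 pooled libraries. For comparison, among all 7869 genes with 5 CPM or more in WJ at 50 days, 94.4% had 5 CPM or more in WJ and 93.9% in BUC at 12 days, and 94% in BUC at 50 days. The corresponding shares of the members were 28.6% in WJ and 24.5% in BUC at 12 days. The members also lay closer to the limit, with a median WJ level of 8.51 CPM at 50 days against 31.8 CPM for all these genes.

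Set beside their own 12-day cultures, the members fell into kinds, which are described without a test because the 50-day values defined the selection. Folds here are on CPM with 0.5 added, and 2-fold was the limit. With these limits, a member under 0.5 CPM in BUC at 12 days could not count as 2-fold lower in BUC. The kinds therefore partly sort the members by their 12-day level, which is not a separate result. In 22 members WJ was over 2-fold higher at 50 than at 12 days while BUC was not 2-fold lower. These were low at 12 days in both cultures, as the limits favour, with a median of 0.358 CPM in WJ and 0.168 CPM in BUC. Of the 22, 16 were already under 1 CPM in BUC. Their median in WJ at 50 days was 7.87 CPM. ENSBTAG00000012909 was of this kind, with 0.439 and 1.42 CPM in WJ and 1.01 CPM in BUC at 12 days before its level of 226 CPM or more in WJ at 50 days.

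In 15 members the change was on the BUC side only. Their medians at 12 days were 6.66 CPM in WJ and 5.70 CPM in BUC, and at 50 days 5.69 CPM in WJ and 0.562 CPM in BUC. The fourth most abundant member in WJ at 50 days was of this kind, with 72.6 and 79.5 CPM in WJ and 67.1 CPM in BUC at 12 days. At 50 days it had 43.0, 47.9 and 46.7 CPM in the WJ libraries and 0.534, 0.858 and 0.676 CPM in the BUC libraries. ENSBTAG00000055045 belonged to it by the same limit, although its level was lower in both cultures. It had 140.1 and 164.7 CPM in WJ and 136.4 CPM in BUC at 12 days, 7.79, 9.91 and 5.43 CPM in WJ at 50 days, and 0.267, 0.429 and 0.169 CPM in BUC at 50 days.

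A further 11 members differed on both sides, with WJ over 2-fold higher and BUC over 2-fold lower at 50 days. Their medians were 3.53 CPM in WJ and 3.13 CPM in BUC at 12 days, 13.6 CPM in WJ and 0.330 CPM in BUC at 50 days. ENSBTAG00000016646 was among them, with 2.02 and 2.33 CPM in WJ and 2.23 CPM in BUC at 12 days. The remaining member was ENSBTAG00000050647. Taken over all 49, WJ at 50 days was over 2-fold higher than WJ at 12 days in 33 members, over 2-fold lower in 2 and within 2-fold in 14, with a median log2 ratio of 1.83. BUC at 50 days was over 2-fold lower than BUC at 12 days in 26 members, higher in 0 and within 2-fold in 23, with a median log2 ratio of -1.28.

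The line was made from WJ cells, and its early libraries were compared with the 12-day WJ libraries. Of the 49 members, 12 were called higher and 13 lower in the 21-day line, by the same edgeR test over all libraries. Over all genes tested, 19.8% were called higher and 24.5% lower, so the members' shares of 24.5% and 26.5% were near the background. The members' median log2 fold change was 0.33, against -0.03 over all genes, and 0.29 over the 46 members for which a fold or a bound could be given. This median was not stable. It was 0.71 without WJ replicate 2, 0.76 in a fit of only these 2 groups, and 0.07 with the AM libraries alone, where that of all genes was 0.05. The fit of only these 2 groups filters the genes anew, so members can drop out of it. At least 4-fold differences were called in 9 members higher and 11 lower, and the share of all genes at this limit was not taken. All 49 members passed the low-count filter, but 4 of them did so only through the 50-day libraries, where they had been selected. Over the other 45, 12 were higher and 12 lower (26.7% each), where 20.1% and 24.7% of the 11974 genes that pass in this way were called. Scaling by library totals alone moved the median of all genes from -0.03 to 0.34, with 4023 genes higher and 1458 lower against 2416 and 2996, and the members were then 13 higher and 11 lower.

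Of the 14 members at 5 CPM or more over the 12-day libraries, 8 were lower and 1 higher in the 21-day line. Among all genes tested at that 12-day level, 33.2% were lower and 13.7% higher. Of the 18 members under 1 CPM at 12 days, 7 were higher and 2 lower, against 40.2% and 2.6% of all genes at that level. Of the 17 between these limits, 4 were higher and 3 lower, against 23.6% and 12.6%. The 12-day level uses the WJ libraries of the comparison, so these counts are a description, and genes in general showed the same tendency.

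The fold with the largest absolute size was that of ENSBTAG00000055045. Its level of 140.1 and 164.7 CPM in the 12-day WJ libraries stood against a lowest, median and highest value of 0, 0.254 and 0.739 CPM in the 21-day line. The log2 fold change was -9.22 ± 0.33 (SE, edgeR adjusted p = 5.08e-15), and the groups did not overlap. Its level in the line was thus below the 5.43 to 9.91 CPM of the 50-day WJ libraries and overlapped the 0.169 to 0.429 CPM of BUC at 50 days.

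ENSBTAG00000016646 was also lower in the 21-day line. It had 2 counts in the 9 libraries, with a highest value of 0.161 CPM and a median of 0, against 59 counts in the 2 WJ libraries at 12 days. Per total counts, the pooled ratio of the line to WJ was 0.0153 (exact 95% interval 0.00181 to 0.0577, counting error only). The log2 fold change was -5.73 ± 0.77 (SE, edgeR adjusted p = 7.88e-06). The fourth most abundant member, at 72.6 and 79.5 CPM in the 12-day WJ libraries, had 0.636 to 5.09 CPM in the 21-day line, and its log2 fold change was -5.26 ± 0.34 (SE, edgeR adjusted p = 1.65e-10).

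Among the members that were higher, ENSBTAG00000049861 had 0 and 0.0646 CPM in the 12-day WJ libraries, and 2.54, 7.26 and 10.6 CPM as the lowest, median and highest value in the 21-day line. The single WJ count, in replicate 2, gave a pooled ratio of 197 (exact 95% interval 35.2 to 7804), and the edgeR adjusted p was 0.00175. It was 0.0331 without WJ replicate 1 and 0.0298 without WJ replicate 2, which leaves no WJ count. At 50 days the same gene had 0.251, 6.19 and 52.2 CPM in the WJ libraries P10, P15 and P18 and no count in BUC. It was thus spread over the WJ libraries of 50 days far more widely than over those of the line.

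ENSBTAG00000013336 had no count in any 12-day library, and 0, 2.003 and 4.35 CPM as the lowest, median and highest value in the 21-day line. The line libraries fell into a low and a high set. Replicates 4, 5, 7 and 9 had 0.308, 0.295, 0.0879 and 0 CPM, and the others 2.003 to 4.35 CPM. Against a floor of 3 counts over the 2 WJ libraries, the line was at least 13.5-fold higher when pooled (edgeR adjusted p = 0.0125). This pooled bound rests mainly on the high set. The call was lost without WJ replicate 1 (adjusted p = 0.0818) and without WJ replicate 2 (adjusted p = 0.103), in a range of 0.000829 to 0.103 over the alternatives. It had 3.27, 8.67 and 13.6 CPM in WJ at 50 days.

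The most abundant member, ENSBTAG00000012909, was higher in the line as well. Its lowest, median and highest values in the 21-day line were 9.84, 21.1 and 24.6 CPM, all above the 0.439 and 1.42 CPM of the 12-day WJ libraries. The log2 fold change was 3.87 ± 0.39 (SE, edgeR adjusted p = 9.01e-08). Its size rested on which WJ library was used, at 3.33 without replicate 1 and 5.00 without replicate 2. The mean in the line, 18.7 ± 4.76 CPM (SD, n = 9), lay between those levels and the 283.1 ± 62.2 CPM (SD, n = 3) of WJ at 50 days.

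**Figure D3:**
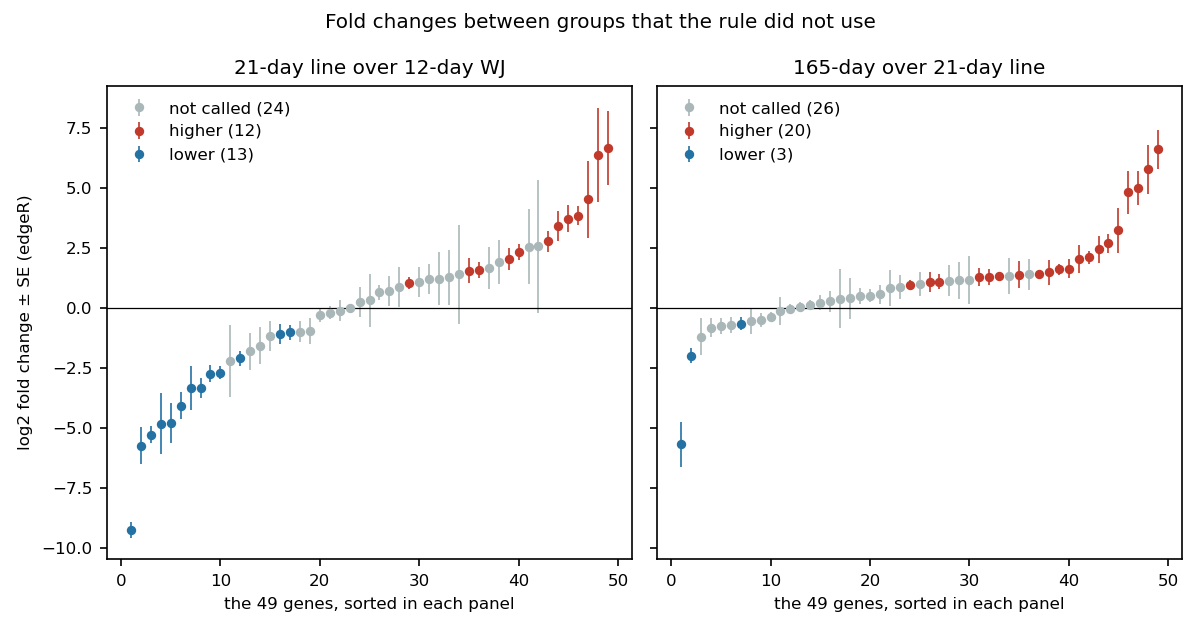
Fitted log2 fold change with its standard error for each of the 49 genes, sorted within each panel, for the 21-day line over the 12-day WJ libraries (left) and for the 165-day over the 21-day line (right). Red marks genes called higher, blue genes called lower and grey genes not called. Calls are nearly even on the left, 12 higher and 13 lower, and mostly higher on the right, 20 against 3, and a fitted fold against a group with no count is not a bound.

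Between 21 and 165 days in the line, more members rose than fell. Of the 49 members, 20 were called higher and 3 lower in the 165-day line (40.8% and 6.12%), where 28.5% of all genes tested were called higher and 28.5% lower. Their median log2 fold change was 1.02, against -0.01 over all genes, and 0.99 over the 48 members with a fold or a bound. At least 4-fold differences were called in 9 members higher and 1 lower, again without the share of all genes at this limit. The background here was not matched to the members by level. At 21 days the members' median level was 2.70 CPM, against 43.7 CPM for all genes with 5 CPM or more in WJ at 50 days. How genes as low as the members changed in general was not tested. The comparison shares the 21-day libraries with the one before it, so the calls of both are not independent. All libraries of 165 days carry the tag 2D and those of 21 days AM or FBS, so culture time and tag cannot be told apart.

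Without replicates 1 and 2 of the 165-day line, left out after the data were seen, 22 members were higher and 3 lower, of which 20 and 2 were shared with the full comparison. This setting removes the libraries nearest to 21 days. Their median member was at 1.88 and 2.13 CPM, within the 1.78 to 3.08 CPM of the 21-day libraries. Thus the rise of the members as a set was seen mainly in replicates 3, 4 and 5, and replicates 1 and 2 alone were not tested. Scaling by library totals alone shifted the median of all genes to -0.33 and gave 17 members higher and 8 lower, with 2022 genes higher and 5038 lower over all genes against 3486 and 3476. Leaving out each library in turn gave 2 to 5 members lower, the 5 without replicate 8 of the 21-day line. Against the AM libraries of 21 days alone, 21 members were higher and 6 lower, and against the FBS libraries alone 15 and 3. Shares of all genes called are not given here for these settings or for leaving out libraries. The members' median log2 fold change was smaller in some settings, at 0.54 in a fit of only these 2 groups, 0.57 against the FBS libraries alone and 0.72 with the replicate block. The first and last of these fits filter the genes anew and cover fewer members. ENSBTAG00000007550 and ENSBTAG00000016646, both called higher in the full fit, have no value in them. These 2 medians and their calls are therefore not over the same members. Over the 45 members that pass the filter without the 50-day libraries, 20 were higher and 3 lower (44.4% and 6.67%), where 28.8% and 29% of such genes were called, and their median was 0.89.

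The seventh most abundant member had the highest level in the line. It had 11.9 to 13.7 CPM in the 12-day libraries, 49.4 to 80.2 CPM in the 21-day line, and 99.6, 92.2, 344.5, 346.5 and 329.6 CPM in replicates 1 to 5 of the 165-day line. All libraries of 165 days were above those of 21 days, and replicates 3, 4 and 5 were far above replicates 1 and 2. The log2 fold change was 2.12 ± 0.27 (SE, edgeR adjusted p = 9.40e-07), and 2.58 without replicates 1 and 2. Its level in WJ at 50 days was 20.1, 23.5 and 60.3 CPM, so the line went above the culture type in which it had been selected.

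ENSBTAG00000007550 had the largest fitted rise. It had no count at 12 days and 2 counts in the 9 libraries of the 21-day line, where its highest value was 0.161 CPM. At 165 days it had 0.251 and 0.266 CPM in replicates 1 and 2 and 6.80, 7.18 and 5.89 CPM in replicates 3, 4 and 5. The pooled ratio was 153 (exact 95% interval 41.9 to 1269), and the log2 fold change was 6.62 ± 0.83 (SE, edgeR adjusted p = 9.55e-07), or 7.24 without replicates 1 and 2. In the 50-day WJ libraries it had 16.1, 20.7 and 4.89 CPM. The fifth most abundant member had the same contrast among the 165-day libraries, with no count in replicates 1 and 2 and 4.28, 4.64 and 3.99 CPM in replicates 3, 4 and 5.

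ENSBTAG00000003786 had no count in the 21-day line and 0.125, 0.533, 1.48, 0.523 and 1.58 CPM in replicates 1 to 5 of the 165-day line. Against a floor of 3 counts over the 9 libraries it was at least 18.6-fold higher at 165 days (edgeR adjusted p = 0.000239), and at least 22.9-fold without replicates 1 and 2. It was also called lower in the 21-day line than in the 12-day WJ libraries, where its 12 counts were all in replicate 2. Without that library neither side had a count and no fold could be given.

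ENSBTAG00000012909 rose again in the line, to 30.1, 27.2, 44.6, 41.7 and 44.8 CPM in replicates 1 to 5 of 165 days. Every one of these values was above the highest of 21 days, 24.6 CPM. The log2 fold change was 1.33 ± 0.18 (SE, edgeR adjusted p = 2.68e-06), and 1.49 without replicates 1 and 2. ENSBTAG00000016646 had 0, 0, 0.222, 1.05 and 0.315 CPM at 165 days and stayed far below the 70.8 CPM or more of the 50-day WJ libraries. It was called higher than at 21 days (log2 fold change 3.26 ± 0.94 SE, edgeR adjusted p = 0.00558) on 20 counts against 2. This call was lost in 4 settings. These were leaving out replicate 4 of the 165-day line (log2 fold change 2.09, adjusted p = 0.0908), the AM libraries alone (adjusted p = 0.0525), the FBS libraries alone (adjusted p = 0.0736) and limma voom (adjusted p = 0.178). The lowest adjusted p over the alternatives, 0.00252, was that without replicates 1 and 2.

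Among the 3 members that fell, ENSBTAG00000001000 changed the most. At 21 days it had 27.3, 27.7 and 26.8 CPM in replicates 1, 2 and 3 and 2.003 to 4.83 CPM in the other libraries, and at 165 days 0.125, 0, 0.295, 0.150 and 0.105 CPM. The groups did not overlap, and the log2 fold change was -5.67 ± 0.94 (SE, edgeR adjusted p = 2.68e-05), and -5.50 without replicates 1 and 2 of 165 days. In WJ at 50 days it was even, at 9.80, 9.09 and 9.78 CPM.

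ENSBTAG00000010431 also fell, with a log2 fold change of -1.97 ± 0.31 (SE, edgeR adjusted p = 1.42e-05). Its lowest, median and highest values at 21 days were 2.75, 4.78 and 5.55 CPM, and it had 0.877, 1.60, 0.517, 0.897 and 0.841 CPM at 165 days. Without replicates 1 and 2 the log2 fold change was -2.24. The third member that was lower at 165 days was just past the threshold (edgeR adjusted p = 0.04999), with a log2 fold change of -0.63, and was not called without replicates 1 and 2 (-0.51, adjusted p = 0.17).

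**Figure D4:**
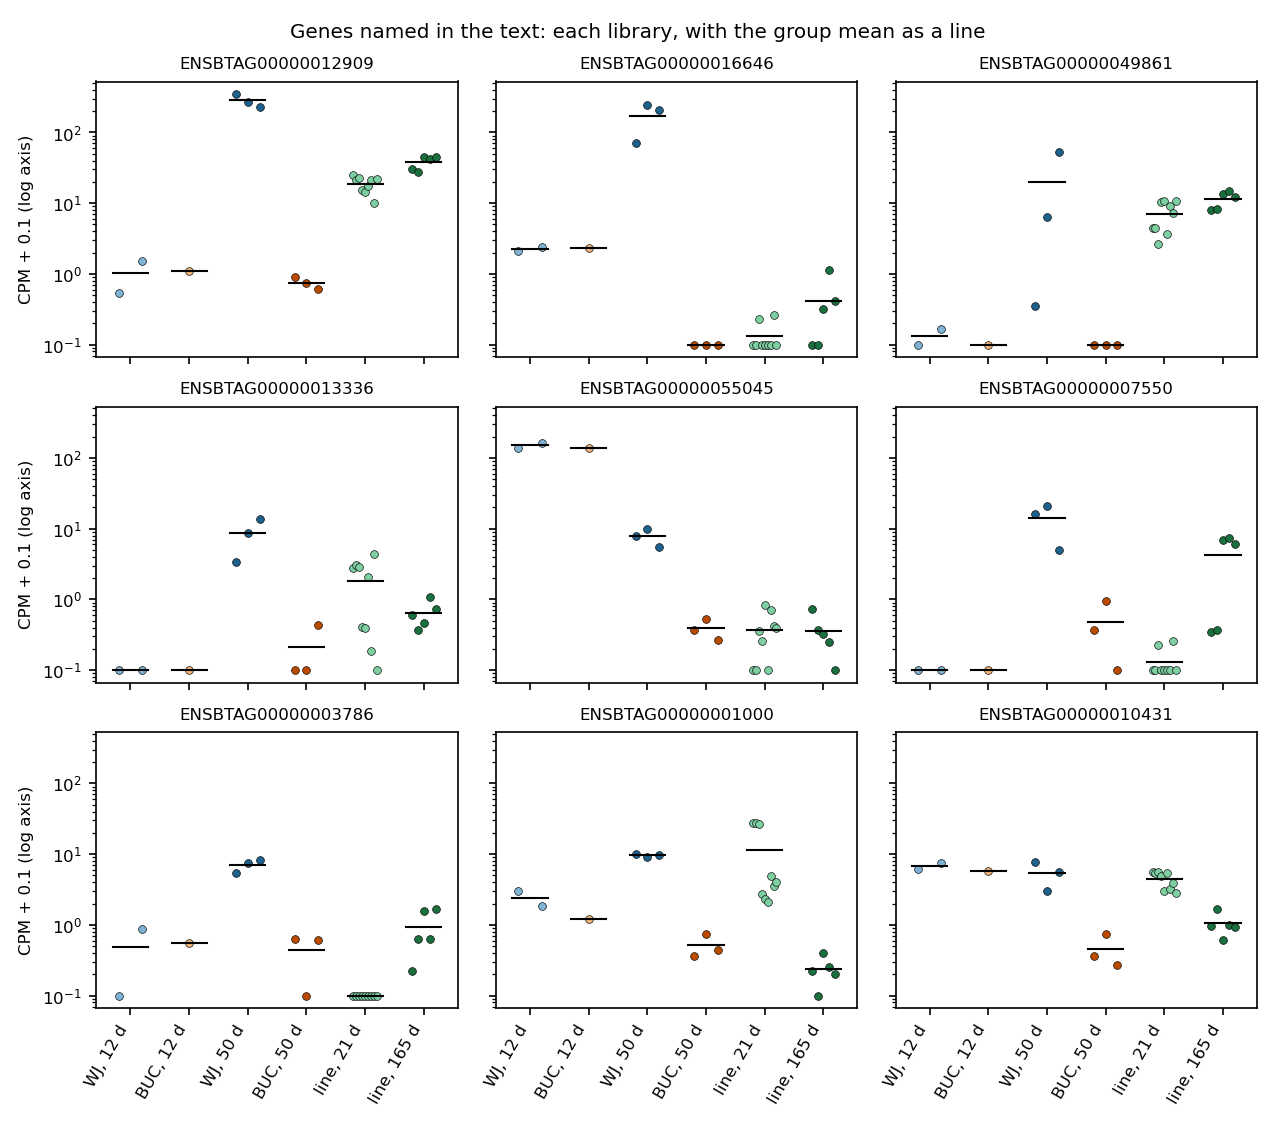
Level of the 9 genes named by rule in each library (points) with the group mean (line), in CPM plus 0.1 on a log axis, in WJ and BUC at 12 and 50 days and in the line at 21 and 165 days. ENSBTAG00000012909 is high in WJ at 50 days and in the line, ENSBTAG00000055045 is highest at 12 days, and in ENSBTAG00000007550 the 165-day libraries form a low pair and a high group of 3.

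Replicates 3, 4 and 5 of the 165-day line were all above replicates 1 and 2 in 26 members and all below in 7. Over all genes tested these shares were 38.5% and 18.9%. The mean of replicates 3 to 5 was over 2-fold that of replicates 1 and 2 in 18 members, and under 0.5-fold in 3. What sets these libraries apart is not given in the labels and was not tested.

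Across the whole line, the members ranged from levels above those of WJ at 50 days to levels under 1 CPM. At 21 days 18 members had a mean of 5 CPM or more, 16 lay between 1 and 5 CPM and 15 under 1 CPM. At 165 days these counts were 22, 13 and 14 over all 5 libraries, 24, 13 and 12 over replicates 3 to 5, and 14, 17 and 18 over replicates 1 and 2. In single libraries, 12 members reached 5 CPM in each of replicates 1 and 2, and 24, 23 and 23 in replicates 3, 4 and 5, against 10 to 20 in the libraries of 21 days. The higher count at 165 days thus rested on replicates 3 to 5. Altogether 24 members reached 5 CPM at either time and 16 at both, and 10 were under 1 CPM at both, or 27, 15 and 9 without replicates 1 and 2. These counts rest on means. Only 8 members were at 5 CPM or more in every library of 21 days and 9 in every library of 165 days. ENSBTAG00000050647 and ENSBTAG00000011161 reached 5 CPM through single high libraries, with medians of 1.77 and 2.17 CPM at 21 days and 0.533 and 2.52 CPM at 165 days. Among all 7869 genes with 5 CPM or more in WJ at 50 days, 95.8% had 5 CPM or more in the line at 21 days and 90% at 165 days.

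Relative to WJ at 50 days, the level of the median member was 0.287 of the WJ mean in the line at 21 days, 0.294 at 165 days and 0.231 in WJ at 12 days. The mean of the line was at or above that of WJ at 50 days in 9 members at 21 days and in 10 at 165 days. It was under 0.1 of it in 15 and 12 members, respectively. Over replicates 3 to 5 of 165 days the ratio was 0.343, with 11 members at or above WJ and 11 under 0.1 of it, and over replicates 1 and 2 it was 0.144, with 7 and 19. The BUC mean of 50 days was exceeded by the line in 42 members at 21 days and in 45 at 165 days (43 without replicates 1 and 2). These ratios rest on WJ means that the selection raised and BUC means that it lowered, so they are not tested.

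The line levels of the kinds described above are counts without a test of their difference. Of the 22 members that were higher in WJ only, 7 had 5 CPM or more at 21 days in the line and 8 at 165 days, and 10 and 8 were under 1 CPM. Of the 11 that differed on both sides, 6 and 8 had 5 CPM or more and 1 was under 1 CPM at each time. Of the 15 that were lower in BUC only, 4 and 5 had 5 CPM or more and 4 and 5 were under 1 CPM. Without replicates 1 and 2, the members at 5 CPM or more at 165 days were 8, 9 and 6 in these kinds, and those under 1 CPM 8, 1 and 3. A member without a count at 12 days, the gene ranked 31 by its WJ mean, had 4.27, 8.67 and 8.15 CPM in the 50-day WJ libraries and a single count in all 14 libraries of the line, in replicate 4 of 165 days.

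**Figure D5:**
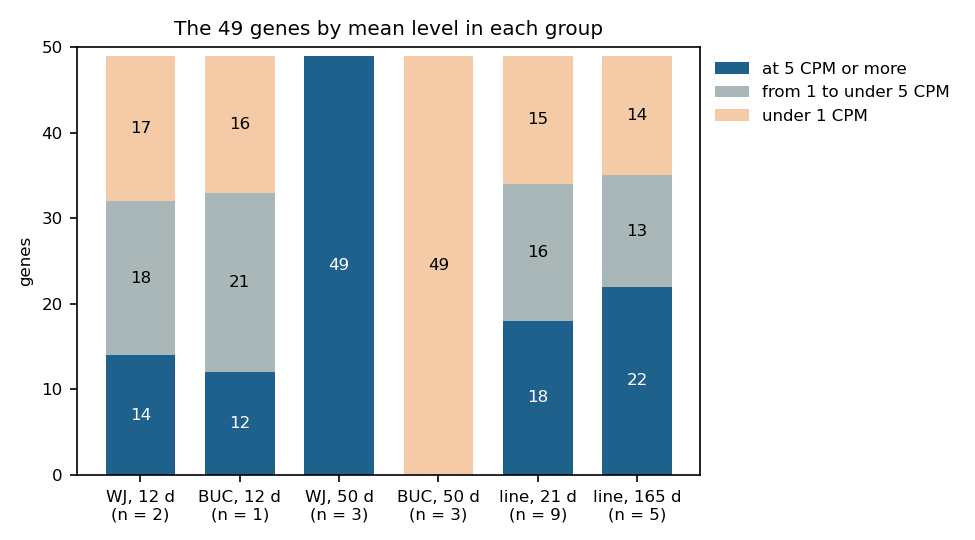
Number of the 49 genes with a group mean of 5 CPM or more, from 1 to under 5 CPM, and under 1 CPM, in each of the 6 groups (number of libraries below each bar). The 50-day bars are fixed by the selection, at 49 of 49 genes in WJ and 0 of 49 in BUC, while 12 to 22 genes reach 5 CPM in the other groups.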

How the data were processed

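RNA was profiled by bulk MARS-Seq, which tags the 3′ ends of poly(A) RNA, with single NovaSeq reads, per the labels' protocols. The deposited values are raw counts per gene for 16094 Ensembl IDs in 23 columns, matched to samples by title. The submitters' processing notes name cutadapt, STAR, HTSeq, DESeq and the build ARS-UCD1.2. Their versions, the annotation release, strand use and handling of molecular identifiers were not given in the sources used here. Intervals and floors therefore cover only counting error, and overlapping or near-identical genes may share counts. Of these genes, 97 were at 0 everywhere.

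The members, the gene lists and the alternatives were chosen with earlier results of these data known. CPM used column totals. Tests used edgeR 4.0.16 in R 4.3.3 (TMM, filterByExpr, estimateDisp, glmQLFit, glmQLFTest) in 1 fit of 23 libraries in 6 groups, with Benjamini-Hochberg adjustment over 12214 genes and a threshold of 0.05. The code was first checked on simulated counts. Standard errors were derived from the F statistic. Pooled ratios have exact conditional 95% intervals, and where a group had no count, 3 pooled counts gave the bound. WJ and BUC of 50 days share P numbers, but no test between them was made.

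None of the 16094 IDs matched the reference table, so 18 gene lists with 404 symbols, the marker check, coordinates and sequences were not used here. Named are the 2 members highest in WJ at 50 days and, per comparison and direction, the 2 called with the largest fold. A further 2, ENSBTAG00000050647 and ENSBTAG00000011161, are named for single high libraries, chosen after their values were seen, and others are given by rank. Alternatives were RLE factors, library totals, no filter, DESeq2 1.42.0, limma 3.58.1 voom, fits of fewer groups, AM or FBS alone, a replicate block, other thresholds for the members, and leaving out each library.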

Additional observations from a re-analysis of the deposited data

Results flagged for a closer look

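Among the members with enough signal, the highest or lowest library was set against the others of its group, for 34 members of the line at 21 days and 35 at 165 days. It stood apart in 2 members in each, where about 1 in 20 would do so by chance, and the genes below were picked on these values after they were seen. ENSBTAG00000050647 was at 110.3 CPM in replicate 8 of the 21-day line (684 counts), with the other 8 libraries at 1.23 to 2.06 CPM. The same gene was at 70.2 CPM in replicate 4 of the 165-day line (939 counts), with the others at 0.376 to 1.05 CPM, and at 97.2 CPM in the P4 WJ library of 12 days (1505 counts). ENSBTAG00000011161 was at 30.1 CPM in replicate 2 of the 165-day line, with the others at 1.48 to 2.76 CPM. It was also at 17.6 and 14.5 CPM in replicates 1 and 8 of the 21-day line, where the other libraries had 1.14 to 2.64 CPM. The remaining one, ranked 17 by its WJ mean, was at 11.8 CPM in replicate 8 of the 21-day line and at 4.87 to 8.01 CPM in the others. Replicate 8 of the 21-day line holds the 2 values that stood apart at 21 days, and also the 14.5 CPM of ENSBTAG00000011161. What these libraries share was not tested.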

How the results depend on the processing

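The number of members depended on the limits: 13 genes had WJ at 10 CPM or more with BUC under 0.5 CPM, 134 had WJ at 2.5 CPM or more with BUC under 1 CPM, and 18 passed in every library. Leaving out each 50-day library gave 44 to 57 genes, and TMM-scaled CPM 54, of which 42 were members. For the 21-day line over WJ, 9 to 15 members were higher and 9 to 17 lower over all settings, including each library left out. The 17 were by limma voom, which called 3437 of 12214 genes higher and 4262 lower, against 2416 and 2996 in the full fit. Genes called over all are not given for leaving out libraries, so these ranges are no trait of the members.

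For the 165-day over the 21-day line, 14 to 22 members were higher over all settings. The 14 came from the fit of only the groups compared, where 3033 of 10744 genes were higher and 3371 lower. The fit of only the groups compared and the replicate block filter the genes anew, so fewer members enter them. The number of lower members was 3, but 8 with library totals alone, 6 against the AM libraries alone, and 2 to 5 with each library left out. With library totals alone 5038 of all genes were lower, against 3476 in the full fit. Such counts are not given for the AM libraries alone, the replicate block or leaving out libraries. The replicate block on the title number, in a fit of only the line, gave 15 higher and 4 lower. Same-numbered libraries showed little shared deviation, with correlations of -0.0612, -0.229, 0.199, -0.099 and -0.0526. Only replicate 3 had its best match in its own number. These values gave no clear sign of pairing but cannot exclude a shared origin. The cause of these shifts was not tested.

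Among single genes, ENSBTAG00000010431 was lower in the 21-day line than in WJ (log2 fold change -0.997, edgeR adjusted p = 0.0151) but lost the call in 4 settings, among them library totals (-0.64, adjusted p = 0.102), in a range of 0.000119 to 0.176. Depth limits the 50-day WJ values most, where a level of 5 CPM rested on as few as 35 pooled counts.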
